A study of Mus musculus with 6 samples.

Results

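Macrophages are identified by receptors that bind antibody, microbial products and dying cells, together with surface and signalling genes that most white blood cells share. A set of 46 such genes was followed in cultured lung fibroblasts of ki and wt mice, as a readout of the myeloid cells carried in the cultures. The genes were chosen by name, and all probes annotated to their symbols were taken, older synonyms being mapped by gene identifier. Probes named 45 of the 46 genes, of 19057 genes named on the array, and the level of Cd68 was not analysed here.

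Both genotypes of the study were profiled: ki cells, from mice with 2 copies of a p38 ki allele (p38ki/ki), and wt cells, from p38+/+ mice. p38 kinases are stress-activated protein kinases. Cells came from 3 different mice per genotype at 10 weeks of age and were used at passage 1 after culture with 15% fetal calf serum, with 1 Illumina bead array per mouse. Which p38 gene was altered, what the allele changes and the sex of the mice are not stated, and no step that removes leukocytes is described.

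Activating Fc-gamma receptors bind antibody and signal, as TREM receptors do, through adapters such as Fcer1g and Tyrobp, whose immunoreceptor tyrosine-based activation motifs (ITAMs) act with Src and Syk family kinases. Fcgr2b instead carries an inhibitory motif. Toll-like receptors and C-type lectins recognise microbial molecules, scavenger receptors take up modified proteins and debris, and the receptor kinases Mertk and Axl bind apoptotic cells through bridging ligands. PU.1, encoded by Spi1, is the transcription factor that many myeloid promoters depend on.

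On each array 17601 to 18531 of 45281 probes were detected, which is 38.87% to 40.92%. The mean background-subtracted signal ran from 519.39 on ki array 2 to 694.72 on ki array 3 in ki, and from 712.31 to 846.67 in wt, so every ki array was dimmer than every wt array before normalisation. Levels are log2 intensities after normalisation, a difference is ki minus wt and is given with its standard error (SE), and n = 3 arrays in each genotype. Their number limits the precision of each value. Genes passed where the adjusted p was under 0.05 by limma's moderated test with Benjamini-Hochberg adjustment over 10412 genes. In such bulk samples, fewer cells of a type and less RNA per cell cannot be told apart.

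Of the 45 member genes, 41 had a probe detected on at least 3 arrays and were tested. Of these, 40 were detected on all 6 arrays, and Cd163 was detected on all but ki array 2. The other 4, Tlr9, Clec4a2, Cd36 and Itgax, were detected on no array: their detection p-values were 0.212 to 0.595, 0.271 to 0.911, 0.272 to 0.748 and 0.0673 to 0.684. Most of the macrophage genes were thus measured in the cultures of both genotypes.

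Among the tested members, 10 (24.4%) passed, where 16.2% of all genes did. Higher in ki were 6, Fcgr4, Clec4e, Adgre1, Aif1, Pilra and Axl, against a background of 8.71%, and lower in ki were 4, Fcgr2b, Trem1, Itgam and Cd84, against 7.49%. No member differed by 2-fold or more: the differences ran from -0.62 to 0.61, with a median of -0.02, against a median of 0.007 over all genes. The median size of a difference, without its sign, was 0.229 in members and 0.163 over all genes. Arrays of the genotypes did not overlap for 26 members (63.4%), where this held for 38.4% of all genes. The members were split between directions, with 19 differences above 0, 21 below and Fcer1g at 0.00.

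The split depended on the scaling. Median scaling over all probes lowered the median of all genes to -0.217 and gave 0 members higher and 6 lower, beside 361 genes higher and 1302 lower. Median scaling over detected probes gave 3 members higher and 7 lower, beside 872 genes higher and 866 lower. Under the first of these, 20 of the 41 members lay above the median of all genes.

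With each array left out in turn, Pilra, Clec4e and Fcgr2b passed in all 6 fits, with adjusted p-values of 0.00758 to 0.0172, 0.0127 to 0.0369 and 0.00993 to 0.0174 by limma. Aif1 passed in 5 and missed the threshold without wt array 3 (adjusted p = 0.0542 by limma). Adgre1 passed in 2 of the 6 fits and Cd84 in 1. As counts, 4 members were higher without wt array 1 or ki array 1, 3 without wt array 2, ki array 2 or ki array 3, and 2 without wt array 3. Lower were 2 without ki array 1 and 1 without any other array. In these fits 5.68% to 6.2% of all genes were higher and 4.17% to 5.56% lower, against 8.71% and 7.49% with all arrays. The list counts below with 1 array left out come from the same fits. Fcgr4, Trem1, Itgam and Axl passed in none, at adjusted p-values of 0.0886 to 0.125, 0.0516 to 0.109, 0.0605 to 0.0998 and 0.081 to 0.13 by limma.

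**Figure D1:**
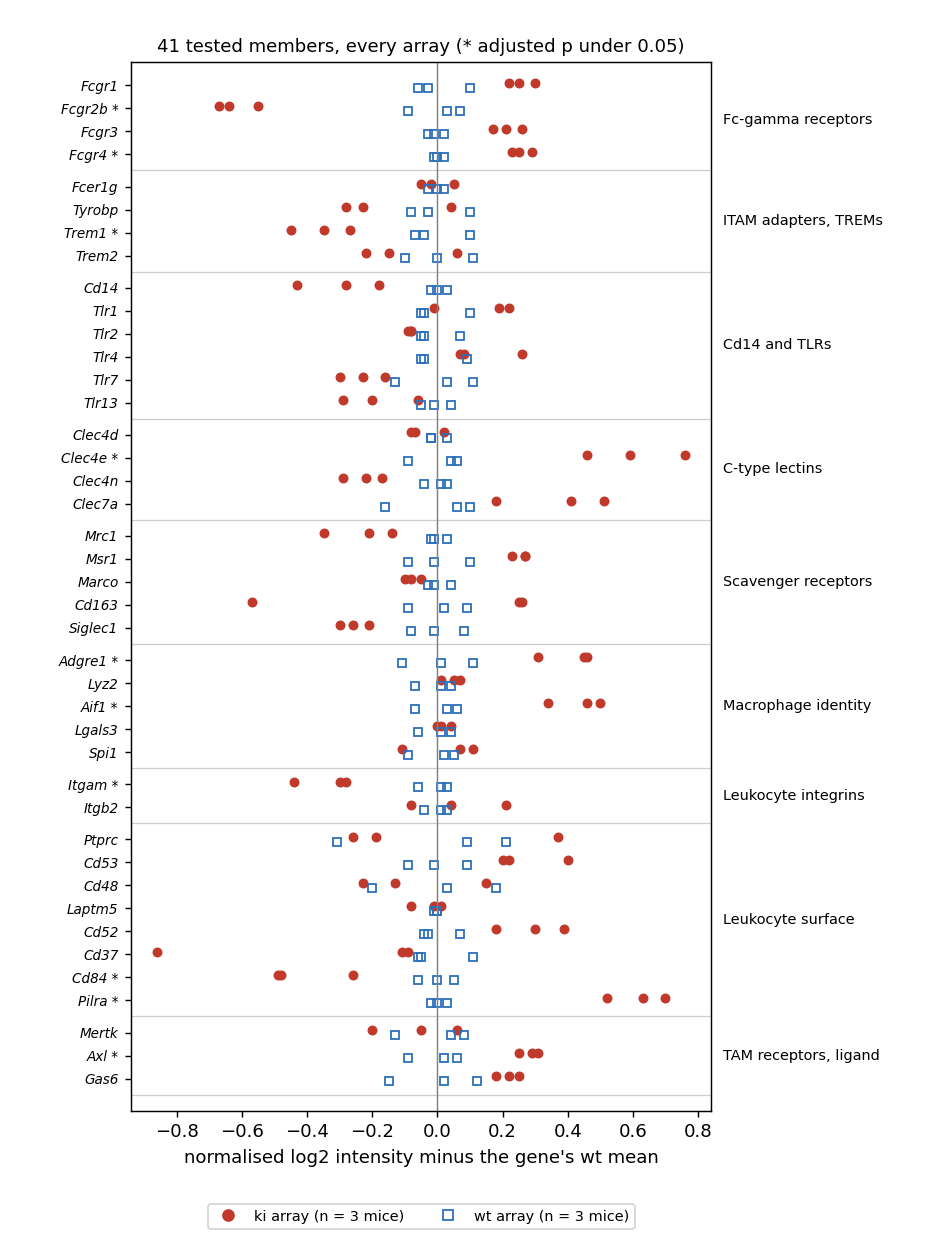
Normalised log2 intensity of each tested member on each array, minus that gene's wt mean, with 1 filled point per ki array and 1 open square per wt array, in rows grouped by role, and with a star on members that passed. Genes of 1 role lie in part on opposite sides of 0, as the C-type lectins Clec4e (0.60) and Clec4n (-0.23) do.

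The promoters of the members most stable to leaving out arrays, and of Fcgr4 as the activating counterpart of Fcgr2b, were read for the core of the PU.1 site, GAGGAA, on either strand. Each window runs from 250 bases before to 50 after the annotated start (RefSeq, GRCm38.p6), 5′ to 3′ on the gene's strand, with matches in capitals. The Fcgr4 window, chr1:171018676-171018975 on the plus strand, holds 1 match, at position -22 from the start. The Clec4e window, chr6:123289822-123290121 on the minus strand, holds 2, at -123 and -56. The Pilra window, chr5:137836229-137836528 on the minus strand, holds 1, at -211. The Fcgr2b window, chr1:170976022-170976321 on the minus strand, holds 0.
Fcgr4: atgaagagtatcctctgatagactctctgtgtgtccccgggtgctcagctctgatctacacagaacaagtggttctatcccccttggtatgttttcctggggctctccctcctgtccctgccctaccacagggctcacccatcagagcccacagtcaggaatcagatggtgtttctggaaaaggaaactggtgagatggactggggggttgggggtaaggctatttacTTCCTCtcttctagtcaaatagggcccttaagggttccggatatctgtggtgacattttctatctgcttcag
Clec4e: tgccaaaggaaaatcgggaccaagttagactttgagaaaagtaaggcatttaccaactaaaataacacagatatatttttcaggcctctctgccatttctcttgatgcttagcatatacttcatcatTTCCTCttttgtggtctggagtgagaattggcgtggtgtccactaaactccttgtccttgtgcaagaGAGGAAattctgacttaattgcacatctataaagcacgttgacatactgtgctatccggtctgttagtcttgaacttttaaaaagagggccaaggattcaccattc
Pilra: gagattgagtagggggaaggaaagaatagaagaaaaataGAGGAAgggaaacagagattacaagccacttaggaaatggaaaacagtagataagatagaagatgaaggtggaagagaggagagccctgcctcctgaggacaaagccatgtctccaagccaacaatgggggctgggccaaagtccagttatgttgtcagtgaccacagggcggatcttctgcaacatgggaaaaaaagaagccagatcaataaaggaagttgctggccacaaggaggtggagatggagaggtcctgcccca
Fcgr2b: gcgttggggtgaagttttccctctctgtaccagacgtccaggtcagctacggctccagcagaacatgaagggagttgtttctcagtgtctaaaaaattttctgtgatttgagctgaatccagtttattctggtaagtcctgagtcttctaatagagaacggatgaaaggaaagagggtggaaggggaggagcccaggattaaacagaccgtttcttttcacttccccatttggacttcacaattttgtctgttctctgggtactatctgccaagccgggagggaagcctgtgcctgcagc
The windows of 35 member genes were found, 39 in all, and 25 (64.1%) held GAGGAA, against 9289 of 32851 windows (28.3%) over all genes. The longer GAGGAAGT, which contains it, was in 5 member windows (12.8%) and in 3.2% of all. GAGGAA was present for 5 of 5 genes higher in ki, 3 of 4 lower, 13 of 21 that did not pass and 2 of 5 that were not tested. No window was found for Adgre1, also higher in ki, and the 5 that were not tested include Cd68. A match describes letters in the window and not a bound site.

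The Fc-gamma receptors take up antibody-coated particles. Fcgr2b, the inhibitory member, reached 11.56, 11.47 and 11.44 on ki arrays, against 12.14, 12.02 and 12.18 on wt arrays. Every ki array lay below every wt array, and Fcgr2b was 1.54-fold lower in ki (difference -0.62, SE 0.0809, adjusted p = 0.00341 by limma). Its second probe differed by -0.42 (SE 0.107), and the 2 dimmest tested probes by 0.01 and 0.18. Fcgr4, an activating receptor, reached 13.65, 13.63 and 13.69 in ki against 13.39, 13.40 and 13.42 in wt. The arrays did not overlap, and Fcgr4 was 1.19-fold higher in ki (0.25, SE 0.0676, adjusted p = 0.0474), though at -0.043 under median scaling over all probes.

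The other activating receptors did not pass. Fcgr1, the high-affinity receptor, had 9.66, 9.69 and 9.74 in ki against 9.54, 9.41 and 9.38 in wt (0.26, SE 0.0776, adjusted p = 0.0722 by limma). Fcgr3 had 12.12, 12.17 and 12.08 in ki against 11.88, 11.90 and 11.93 in wt (0.22, SE 0.0697, adjusted p = 0.0827). For all 4 Fc-gamma receptors the genotypes did not overlap, with the 3 activating receptors higher on every ki array and the inhibitory one lower. Among all genes, 38.4% had no overlap. Median scaling over all probes left only Fcgr1 above 0 (0.018) and put Fcgr3 at -0.072, and relative to all genes the 3 stood at 0.145 to 0.235.

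Fcer1g, the ITAM adapter of the activating Fc receptors, had 14.74, 14.71 and 14.81 in ki against 14.78, 14.73 and 14.76 in wt. The values overlapped, at a difference of 0.00 (SE 0.0703). Tyrobp, the adapter of the TREM receptors, differed by -0.16 (SE 0.11, adjusted p = 0.384 by limma), and Trem2, a lipid-sensing receptor of tissue macrophages, by -0.10 (SE 0.103, adjusted p = 0.54). Trem1, which amplifies inflammatory signals in myeloid cells, had 7.46, 7.54 and 7.36 in ki against 7.91, 7.74 and 7.77 in wt. Its arrays did not overlap, and Trem1 was 1.28-fold lower in ki (-0.35, SE 0.0865, adjusted p = 0.0362).

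None of the 6 tested genes for microbial sensing passed by limma, where 16.2% of all genes did. Of the 6, 2 had an unadjusted p under 0.05, and the share of all genes under that threshold was not counted. Cd14, the lipopolysaccharide co-receptor, had 12.93, 12.83 and 12.68 in ki against 13.14, 13.11 and 13.09 in wt, with no overlap (-0.30, SE 0.0868, adjusted p = 0.0628 by limma). The lipopeptide receptors Tlr2 and Tlr1 differed by -0.08 and 0.13. Tlr7, which senses single-stranded RNA, differed by -0.23 (adjusted p = 0.138), and Tlr13, a sensor of bacterial ribosomal RNA in mice, by -0.18 (adjusted p = 0.217). Tlr4, the lipopolysaccharide receptor, differed by 0.13 on its brightest probe (adjusted p = 0.363). Its second probe differed by 0.40 (SE 0.0961, adjusted p = 0.0382 over all probes), so the Tlr4 probes fell on different sides of the threshold.

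Of the C-type lectins, Clec4e (Mincle), a receptor for mycobacterial glycolipids and dead cells, had 10.80, 10.63 and 10.50 in ki against 10.08, 10.10 and 9.95 in wt. All ki arrays lay above all wt arrays, and Clec4e was 1.52-fold higher in ki (0.60, SE 0.1, adjusted p = 0.00911 by limma). Its second probe agreed in size, at 0.56 (SE 0.0761). Clec4d, the lectin encoded next to it, had 12.93, 13.02 and 12.92 in ki against 12.98, 12.98 and 13.03 in wt, which overlapped (-0.04, SE 0.071, adjusted p = 0.748). The beta-glucan receptor Clec7a (Dectin-1) differed by 0.37 (SE 0.118, adjusted p = 0.0842), and its second probe by 0.32. Clec4n (Dectin-2), which binds fungal mannans, differed by -0.23 (SE 0.0733, adjusted p = 0.0842).

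None of the 5 tested scavenger and mannose receptors passed by limma, where 16.2% of all genes did. An unadjusted p under 0.05 was found for 1 above and 2 below 0, and the share of all genes there was not counted. Mrc1, the mannose receptor, had 13.28, 13.07 and 13.21 in ki against 13.45, 13.41 and 13.40 in wt (-0.23, SE 0.0817, adjusted p = 0.109 by limma). Siglec1, a sialic acid-binding receptor of tissue macrophages, differed by -0.25 (adjusted p = 0.0699), and the collagenous receptor Marco by -0.08 (adjusted p = 0.466). Msr1, the class A scavenger receptor, differed by 0.26 (SE 0.0794, adjusted p = 0.0766). The arrays did not overlap for these 4 genes, with Msr1 on the higher side in ki and the other 3 on the lower. Among all genes, 38.4% had no overlap. Cd163, the haemoglobin scavenger, had 6.51, 5.68 and 6.50 in ki against 6.16, 6.34 and 6.27 in wt (-0.02, SE 0.224), and its lowest value was on ki array 2, where it was not detected.

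Of the general macrophage genes, Adgre1, which encodes F4/80, had 12.98, 13.12 and 13.13 in ki against 12.78, 12.56 and 12.68 in wt. The arrays did not overlap, and Adgre1 was 1.32-fold higher in ki (0.40, SE 0.0899, adjusted p = 0.0274 by limma). Its other probes gave 0.22 and -0.01 and did not pass. Aif1, which encodes the actin-binding protein Iba1, had 10.78, 10.90 and 10.94 in ki against 10.47, 10.50 and 10.37 in wt. It was 1.34-fold higher in ki (0.43, SE 0.0812, adjusted p = 0.015), and its other probes gave 0.49 and 0.28.

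Lyz2, lysozyme M, had 16.04, 16.02 and 15.98 in ki against 15.90, 16.01 and 15.98 in wt, and Lgals3, galectin-3, had 14.70, 14.66 and 14.67 in ki against 14.70, 14.67 and 14.60 in wt. The raw signal of this Lyz2 probe, 61500 to 68200, was close to the highest signal of each array, 65400 to 70400. Saturation was not tested, so its difference of 0.05 (SE 0.0714) is not read as a measure of change, and the other Lyz2 probes gave 0.08 and -0.14. Lgals3 values overlapped (0.02, SE 0.0701). Spi1, which encodes PU.1, had 8.12, 8.16 and 7.94 in ki against 8.10, 7.96 and 8.07 in wt (0.03, SE 0.0897, adjusted p = 0.869 by limma). Overlap of this kind does not show that the levels were equal.

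**Figure D2:**
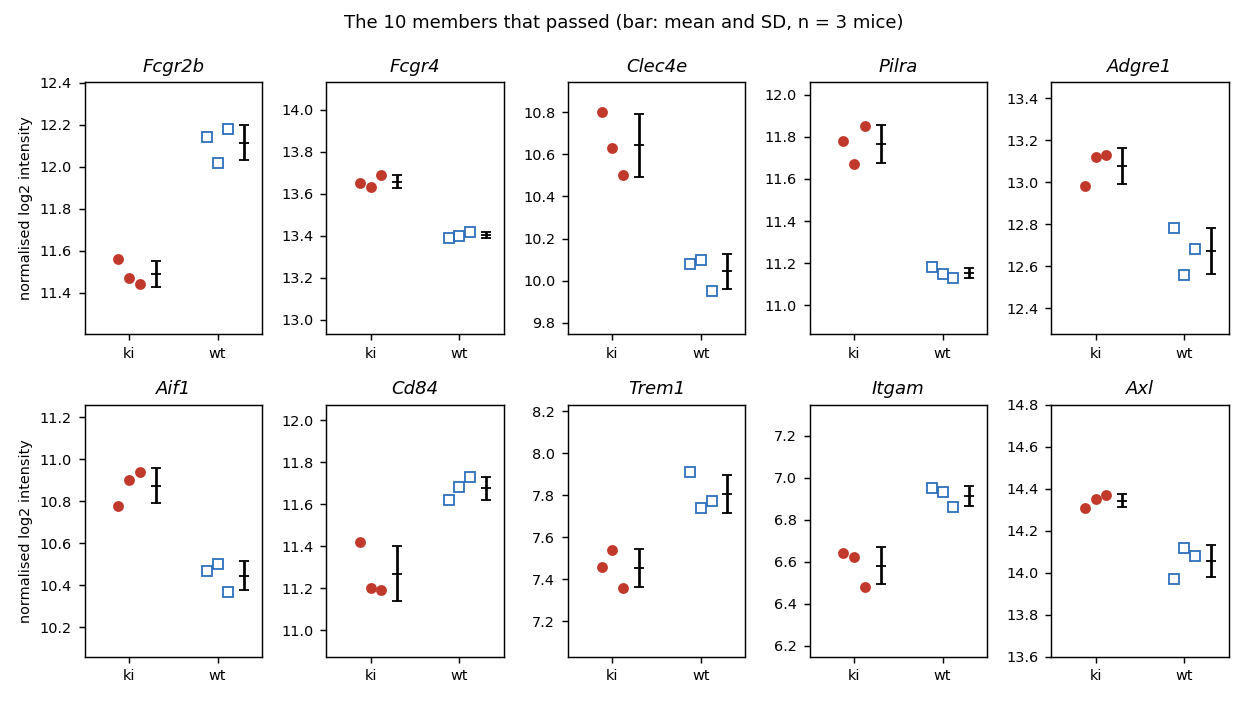
Normalised log2 intensity of the 10 members that passed, with 1 point per array, ki left of wt, and bars for the mean ± SD (n = 3). In each panel the ki points lie wholly above or wholly below the wt points, from Pilra (0.61) to Fcgr2b (-0.62).

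Itgam encodes CD11b, the alpha chain of the myeloid integrin Mac-1, and Itgb2 its beta chain. Itgam had 6.64, 6.62 and 6.48 in ki against 6.95, 6.93 and 6.86 in wt, without overlap. It was 1.26-fold lower in ki (-0.33, SE 0.079, adjusted p = 0.0321 by limma). This rests on 1 probe of low raw signal, 63.1 to 130, though it was detected on all 6 arrays. Itgb2 had 7.89, 8.18 and 8.01 in ki against 7.93, 8.0 and 7.98 in wt, which overlapped (0.06, SE 0.093, adjusted p = 0.717).

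Of the 8 leukocyte surface genes, 1 passed in each direction (25%, where 16.2% of all genes passed). Pilra, an inhibitory receptor of myeloid cells, had 11.78, 11.67 and 11.85 in ki against 11.18, 11.15 and 11.13 in wt. The arrays were far apart relative to their spread, and Pilra was 1.53-fold higher in ki (0.61, SE 0.0783, adjusted p = 0.00327 by limma). Its other probes gave 0.61 and 0.65, both past the threshold over all probes. Cd84, a self-binding receptor of the SLAM family, had 11.42, 11.20 and 11.19 in ki against 11.62, 11.68 and 11.73 in wt. It was 1.32-fold lower in ki (-0.41, SE 0.091, adjusted p = 0.0272), while its other probes gave -0.23 and 0.30, so the Cd84 probes differed in sign.

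Ptprc, which encodes the pan-leukocyte phosphatase CD45, had 6.57, 7.13 and 6.50 in ki against 6.97, 6.85 and 6.45 in wt (-0.03, SE 0.206, adjusted p = 0.937 by limma). Laptm5, a lysosomal protein of blood cells, had 15.12, 15.19 and 15.21 in ki against 15.19, 15.20 and 15.20 in wt (-0.02, SE 0.0689, adjusted p = 0.867). Both sets of values overlapped between genotypes. The tetraspanins Cd53 and Cd37 differed by 0.28 (adjusted p = 0.0902) and -0.35 (SE 0.212, adjusted p = 0.312), and Cd48, a SLAM-family ligand, by -0.07 (adjusted p = 0.762).

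Cd52, a small glycoprotein of leukocytes, had probes that disagreed. Its brightest had 13.65, 13.74 and 13.53 in ki against 13.32, 13.42 and 13.31 in wt (0.29, SE 0.085, adjusted p = 0.068 by limma). Its second probe had 11.05, 10.95 and 11.06 in ki against 11.78, 11.59 and 11.36 in wt (-0.56, SE 0.119, adjusted p = 0.0256 over all probes). No direction is given for Cd52. Of 15 members with several tested probes, 8 had all of them on the same side of 0.

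**Figure D3:**
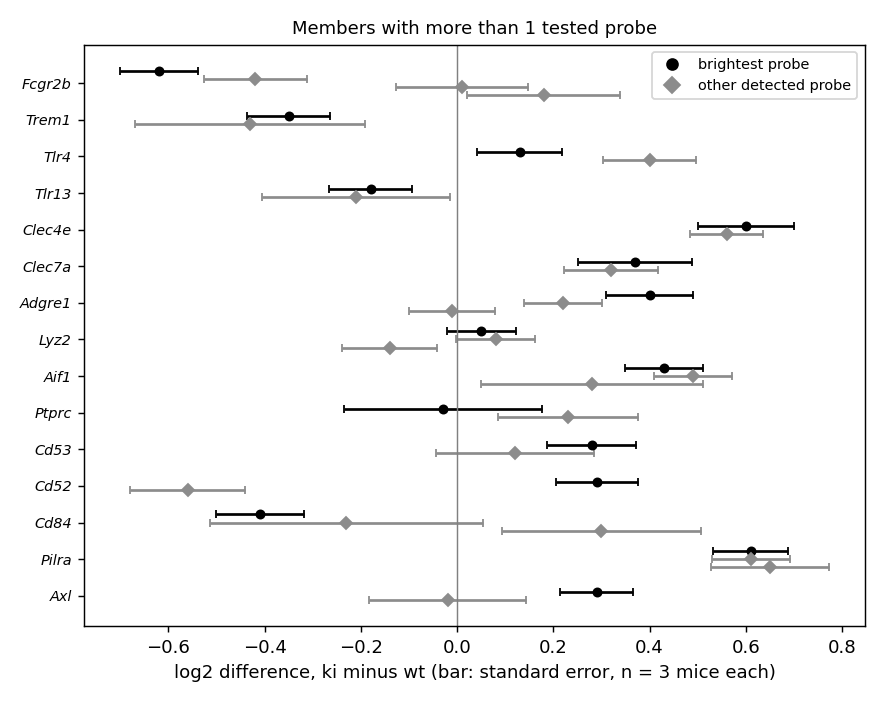
Difference ki minus wt (log2) with its SE for each tested probe of the members that have several, with the brightest probe marked. The Pilra, Clec4e and Aif1 probes lie together above 0, and the Cd52 probes lie on opposite sides.

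Axl, a receptor kinase that binds apoptotic cells through Gas6, had 14.31, 14.35 and 14.37 in ki against 13.97, 14.12 and 14.08 in wt. The arrays did not overlap, and Axl was 1.22-fold higher in ki (0.29, SE 0.0753, adjusted p = 0.0454 by limma), though at -0.002 under median scaling over all probes. Its second probe differed by -0.02. Fibroblasts are also known to express Axl and Gas6, so their levels are not specific to leukocytes. For the other members and the listed genes, the cell type that carried the signal was not tested. Gas6, the bridging ligand, differed by 0.22 (SE 0.0909, adjusted p = 0.161), and Mertk, the related receptor of macrophages, by -0.06 (SE 0.101, adjusted p = 0.738).

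The arrays of a genotype also differed among themselves. The median SD of a member was 0.0901 in ki and 0.0761 in wt. Array ki3 held the lowest ki value for 20 of the 41 members, and array wt1 the highest wt value for 20. Array ki2, the dimmest before normalisation, held the highest ki value for 17, Tyrobp, Trem2, Itgb2, Ptprc and Cd48 among them. Its part in these values was not tested, and the counts without it are given with the other processing settings.

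Genes that act with these receptors were counted in 7 lists. Of 14 tested genes of ITAM signalling, 4 were higher and 1 lower in ki (35.7%, where 16.2% of all genes passed), with a median difference of 0.14. Under median scaling over all probes 2 were higher and 2 lower, with a median of -0.12. Fgr, a Src family kinase of myeloid cells, was 5.19-fold higher (2.38, SE 0.148, adjusted p = 0.000181 by limma), with 8.79, 8.73 and 8.90 in ki against 6.71, 6.45 and 6.14 in wt. The phosphatase Ptpn6 (SHP-1) was 1.79-fold higher (0.84, SE 0.0945, adjusted p = 0.00198), and the adapter Lcp2 1.39-fold higher (0.47, adjusted p = 0.00644). Chosen after their values were seen, to complete the count, were the adapter Dok3, at 0.42, and the inositol phosphatase Inpp5d (SHIP-1), at -0.37. Ptpn6, Dok3 and Inpp5d are known as inhibitors of receptor signalling. Syk was detected on 1 array and was not tested.

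Of 12 tested genes of the leukocyte cytoskeleton and migration, 6 (50%) were higher in ki and 0 lower (8.71% and 7.49% of all genes), with a median of 0.39. Among them Dock2, an activator of Rac in leukocytes, was detected on all 3 ki arrays and no wt array. It entered the test through ki alone, at least 1.38-fold higher, and without it 5 of 11 genes passed, with a median of 0.31. All 12 differences lay above 0, and 8 of 12 did under median scaling over all probes, where 11 lay above the median of all genes and 1 passed. Arhgdib was 1.44-fold higher (0.52, adjusted p = 0.00594 by limma), and Itgal, the alpha chain of the integrin LFA-1, 1.38-fold higher (0.46, adjusted p = 0.00638). With 1 array left out, 4 or 5 of the genes passed except without ki array 1, where 3 did (Dock2 was not tested without any 1 ki array), and 0 did without wt array 1 and ki array 2 together.

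Of 14 tested myeloid transcription factors, 4 were higher and 1 lower (35.7%, where 16.2% of all genes passed), with a median of -0.13. Cebpb, which acts in macrophage activation, was 1.40-fold lower in ki (-0.49, adjusted p = 0.0143 by limma). Irf8 was 1.44-fold higher (0.52, adjusted p = 0.0187) and Zeb2 1.53-fold higher (0.61, adjusted p = 0.0198), both factors of monocyte and dendritic cell development. Ikzf1 and Irf5, named after their values were seen, differed by 0.42 and 0.32. The count of higher genes was 0 without wt array 1, 1 without wt array 2 or 3, 2 without any 1 ki array, and 0 under median scaling over all probes.

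Of 16 other macrophage genes, 1 was higher and 4 lower (31.2%, where 16.2% of all genes passed), with a median of -0.05. Under median scaling over all probes 0 were higher and 6 lower, with a median of -0.30. The membrane protein Ms4a7 was 1.59-fold lower in ki (-0.66, adjusted p = 0.00298 by limma), the complement receptor C5ar1 1.66-fold lower (-0.73, adjusted p = 0.00487) and the complement chain C1qc 1.34-fold lower (-0.42, adjusted p = 0.00749). C5ar1 had 5.77, 5.82 and 5.74 in ki and was detected on 2 of these arrays, so its fold rests on signal near the detection limit. C1qa, at -0.33, and the oxidase subunit Ncf4, at 0.31, complete the count and were named after their values were seen.

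Few genes of the remaining lists passed. Toll-like receptor signalling had 1 of 18 (5.56%), Irak3, a negative regulator of these receptors, 1.31-fold higher in ki (0.39, adjusted p = 0.0329 by limma). Under median scaling over all probes this list had 0 higher and 2 lower, and its median was -0.13, against 0.12 before. The phagosome and lysosome had 1 of 15 (6.67%), the protease Ctsl, 1.70-fold lower (-0.77, adjusted p = 0.00573). Uptake of apoptotic cells had 1 of 11 (9.09%), the receptor Cd300lf, 1.36-fold lower (-0.45, adjusted p = 0.0256). These shares lay below the 16.2% of all genes.

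**Figure D4:**
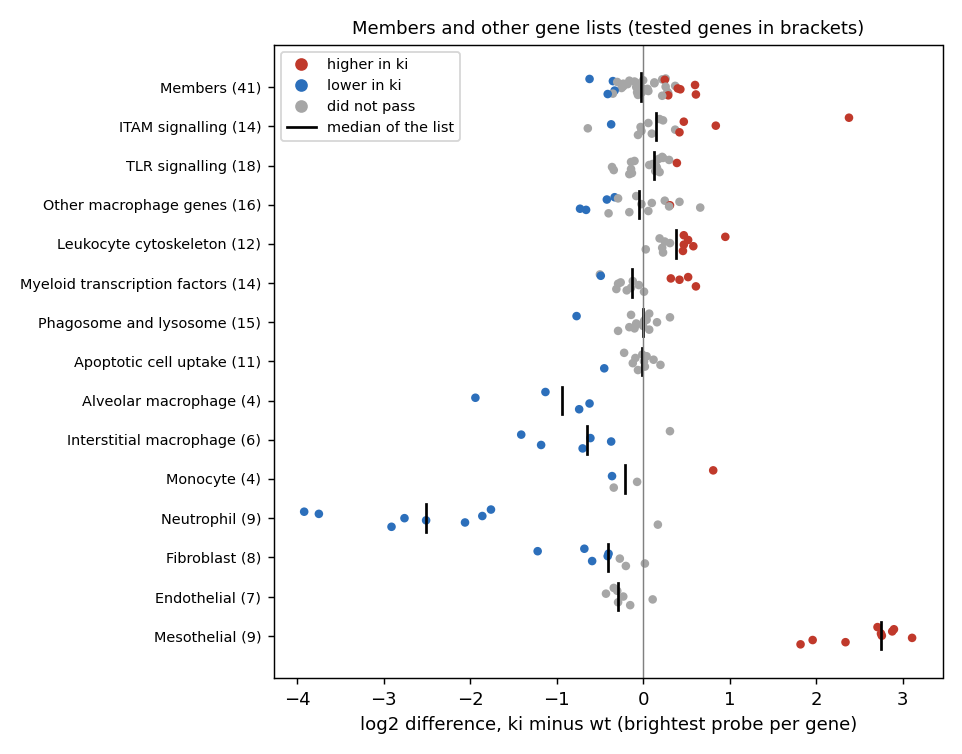
Difference ki minus wt (log2, brightest probe) of each tested gene among the members, in the 7 pathway lists and in 7 of the cell type marker lists, with points coloured by whether the gene passed higher, passed lower or did not pass, and a black line at each median. Members lie between -0.62 and 0.61, and the mesothelial and neutrophil marker lists lie further out, with medians of 2.75 and -2.51.

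Markers of particular kinds of macrophage were read beside the members. Of 11 alveolar macrophage markers 4 were tested and all 4 were lower in ki, where 7.49% of all genes were. The median of the 4 was -0.93. Their summed intensity was 7389 to 7488 in ki, against 15633 to 17739 in wt. Most of this sum came from Chil3, at a level of 12.74 in ki and 13.87 in wt. Chil3, a chitinase-like protein, was 2.19-fold lower, the carbonic anhydrase Car4 3.82-fold lower and Pparg, the factor of alveolar macrophage development, 1.54-fold lower. Plet1, named after its values were seen, had 5.90, 5.65 and 5.58 in ki. It was detected on 1 of these arrays, so its difference of -0.74 rests on signal near the detection limit. The defining Siglecf was detected on no array, nor were Fabp4, Krt79 and Cidec. Without wt array 1, 2 of the markers passed, and 3 or 4 did without any other array.

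Of 7 interstitial macrophage markers 6 were tested, and 5 were lower in ki, where 7.49% of all genes were. Their median was -0.66, with sums of 12219 to 13429 in ki against 16473 to 17371 in wt. Without wt array 1, 2 passed, without wt array 2 or 3, 3 did, and without any 1 ki array, 4 did. F13a1, at a level of 13.48 in ki and 13.84 in wt, made up most of the sums and was 1.29-fold lower. Mgl2 was 2.26-fold lower, while Lyve1 differed by 0.31 (adjusted p = 0.114 by limma). Monocyte markers had 1 of 4 higher and 1 lower (8.71% and 7.49% of all genes), with sums of 12068 to 12811 in ki against 14681 to 16009 in wt. Plac8, at a level of 13.27 in ki and 13.63 in wt, made up most of the monocyte sums and was 1.28-fold lower. Ccr2, named after its values were seen, was detected in ki only, entered the test through ki alone and was at least 1.25-fold higher. Hp and Vcan differed by -0.07 and -0.34 and did not pass.

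Neutrophil markers had 8 of 9 tested genes lower, where 7.49% of all genes were. Their median was -2.51, with sums of 3039 to 3511 in ki against 12715 to 13414 in wt. S100a8 was 3.38-fold lower and S100a9 15.1-fold lower, and Csf3r differed by 0.17. Of the 8, Mpo, Ngp, Camp and Ctsg were detected on the 3 wt arrays alone and entered the test through them, so they had to differ. The other 5 tested markers had 4 lower, with a median of -1.86, and 2 were lower with detection p under 0.01 required on all arrays. Trem1 and Itgam, both lower in ki, are known in neutrophils as well as in macrophages, and the neutrophil markers' part in their difference was not tested.

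Markers of other leukocytes were mostly undetected. Of 8 dendritic cell markers, Flt3, Xcr1, Cd209a, Ccr7 and Ciita were detected on no array and Clec9a on 2. Siglech was higher (0.44, adjusted p = 0.0144 by limma) and Zbtb46 differed by -0.21, with sums of 132 to 140 in ki against 110 to 135 in wt. Siglech levels were low, at 6.23 to 6.42 in ki and 5.85 to 5.96 in wt. The list had 0 higher under median scaling over all probes or with eBayes trend and robust. It also had 0 higher with detection p under 0.01 on all arrays. Lymphocyte lists held few detected genes: Cd3e and Il7r of 8 T cell genes, Cd22 of 7 B cell genes and Prf1 of 7 NK cell genes. Of 7 mast cell genes, Kit was tested. None of these 5 genes passed by limma, where 16.2% of all genes did. Il7r, Prf1 and Kit had an unadjusted p under 0.05, and the share of all genes under that threshold was not counted. The defining Cd3d, Cd3g, Ms4a1, Pax5, Ncr1 and Ms4a2 were detected on no array.

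The non-leukocyte lists also differed. All 8 fibroblast markers were tested, 5 of them lower in ki, where 7.49% of all genes were. Their median was -0.40, with sums of 66339 to 69788 in ki against 85813 to 92556 in wt. Without wt array 1, 2 or 3 or ki array 2, 3 of them passed. Col1a1 was 1.60-fold and Col3a1 1.32-fold lower, and Dcn differed by 0.02. All 9 tested mesothelial markers were higher in ki, where 8.71% of all genes were. Their median was 2.75, with sums of 10414 to 11163 in ki against 1520 to 1753 in wt. Krt19 and Gpm6a entered the test through ki alone, and the other 7 were all higher. Krt8 was 6.74-fold, Upk3b 7.47-fold and Upk1b 7.36-fold higher. Of 8 epithelial markers 3 were tested and Cdh1 was 2.42-fold higher, with sums of 633 to 642 in ki against 265 to 388 in wt, while Epcam and the surfactant genes Sftpc, Sftpb and Sftpa1 were detected on no array. The 7 endothelial markers had 0 passing by limma (16.2% of all genes) and a median of -0.29. Their sums were 2469 to 2658 in ki against 2871 to 3097 in wt. Of the 7, 4 had an unadjusted p under 0.05, and the share of all genes under that threshold was not counted. Under median scaling over all probes 3 of the endothelial markers were lower. With detection p under 0.01 on all arrays 2 were, and without wt array 2, ki array 1 or ki array 2, 1 was. The part of these lists in the members' differences was not tested.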

How the data were processed

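RNA of lung fibroblasts from 3 ki and 3 wt mice was labelled as biotin cRNA, per the labels. The authors deposited bead-array intensities that are not normalised between arrays. These intensities were background-subtracted before deposit, as 28.59% to 32.02% of them per array are negative. The authors also deposited normalised intensities, and a detection p-value per probe and array, per the file headers. The series value table equals the normalised intensities in 100% of cells. The sources used here give neither the software nor the normalisation method.

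In R 4.3.3, limma 3.58.1 was used for normexp correction (negative controls inferred from the detection p-values, offset 16), quantile normalisation and log2 transformation. Probes with detection p under 0.05 on at least 3 of 6 arrays (18249) were fitted, with 4 residual degrees of freedom and a median residual SD of 0.136. The brightest probe stood for each of 10412 genes. Variances were moderated over all fitted probes. A first fit that moderated them over the brightest probes alone (1883 genes passing) was seen before this choice and is kept as an alternative. Probes with several symbols (18) or none (10378) were left out, and 34885 had 1. The folds written "at least" set the mean of the detected genotype against, per undetected array, the higher of the lowest detected signal and the probe's own. Summed intensities are sums of linear normalised values over a list's tested genes, so the brightest genes of a list weigh most in them.

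The members and lists were chosen with earlier results of these data known. Named were all members, up to 3 passing genes of each pathway list with the smallest adjusted p, and up to 3 genes of each marker list with the highest mean level. Promoters came from RefSeq tables. Alternatives changed the background correction, scaling, offset, filter, variance model, probe rule, threshold, replicate block and arrays used. Added after seeing the data were eBayes over the brightest probes and adjustment over all detected probes. The fit was tested on simulated data. Python 3.11.15 and matplotlib 3.10.9 drew the figures.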

Additional observations from a re-analysis of the deposited data

How the results depend on the processing

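Over 20 alternatives at the same threshold, Pilra passed in 19, Fcgr2b and Clec4e in 18, Aif1 in 16, Cd84 in 11, Adgre1 in 10, Trem1 in 9, Itgam in 8, Fcgr4 in 7 and Axl in 6. None of the 10 passed in every alternative, 12 of the 31 members that did not pass did so in some, and 15 of those 31 changed sign in some. Median scaling over all probes lowered the median of all genes to -0.217 and left 0 members higher, turning Fcgr4 to -0.043 and Axl to -0.002. Relative to that shift the differences were 0.571 for Clec4e, 0.555 for Pilra, 0.387 for Aif1, 0.287 for Adgre1, 0.215 for Axl, 0.174 for Fcgr4 and -0.691 for Fcgr2b. Median scaling over detected probes gave 3 members higher and 7 lower (8.37% and 8.32% of all genes). There were 3 higher and 1 lower with no detection filter (3.83% and 3.04% of all genes). With eBayes trend and robust there were 13 higher and 7 lower (12.9% and 11% of all genes). The mean of a gene's probes gave 5 higher and 2 lower (9.33% and 8.86% of all genes). The 2 lower were Cd14 and Itgam, while Fcgr2b, Trem1 and Cd84 did not pass. At an adjusted p under 0.01 there were 2 higher, 1 lower and 733 genes in all. Without the highest-signal wt and lowest-signal ki array (wt array 1, ki array 2) Pilra alone passed, giving 1 higher, 0 lower and 595 genes. Leaving out each array gave 2 to 4 members higher, 1 to 2 lower and 1008 to 1203 genes, with fewer arrays in each fit. Without ki array 2 there were 3 higher and 1 lower. Other causes of these changes were not tested. The replicate block gave 2 higher and 1 lower, and 1205 genes. Same-numbered arrays correlated at 0.004, 0.014 and 0.105 in their deviations, and 1 of 3 ki arrays correlated best with its own number. So few arrays cannot decide whether the numbers pair the samples, and the labels do not state it.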
